A study of Mus musculus with 70 samples.

Results

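Microglia of Cre+ pups given tamoxifen were compared between treatment with UC2288 and treatment with vehicle. The comparison rests on 9 of the 70 libraries of the series, 5 labelled UC2288 and 4 labelled vehicle, chosen by their labels and by the count table that holds them. UC2288 is a small molecule derived from the kinase inhibitor sorafenib and known for lowering p21, the product of Cdkn1a. The labels give its use as inhibition of CDKN1A function, by intraperitoneal injection of postnatal mice. The dose was 100 mg/kg, with corn oil plus 2% DMSO as the carrier.

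All 9 libraries came from mice heterozygous for Cx3cr1CreERT2(Litt), an allele that places a tamoxifen-inducible Cre recombinase in the Cx3cr1 gene and so leaves 1 unaltered copy of that gene. No floxed target is named in the labels, and the vehicle libraries carried the same allele and received the same tamoxifen. Neonates received either 0.1 mg tamoxifen on postnatal days 1 and 3 or 0.2 mg on days 5 and 7, and pups were 8 or 14 days old, but neither the schedule nor the age is given for single libraries. The other groups of the same count table serve as reference: Cre+ pups given vehicle and oil without tamoxifen (n = 4), Cx3cr1+/+ pups (Cre-) given vehicle and tamoxifen (n = 5), and Cre- pups given UC2288 and tamoxifen (n = 3). Each library was made by CEL-Seq2, a 3′ end method, from 500 sorted brain cells positive for CD11b and CD45 and negative for Ly6G and CD206. No label says that libraries of a group came from separate animals, so the p-values measure the spread between these libraries, which may be partly technical.

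Microglia are the resident macrophages of the brain and depend on signalling through CSF1R. p21 holds the cell cycle by inhibiting cyclin-dependent kinases and is transcribed under p53 after DNA damage. Type I interferon induces antiviral genes and the class I antigen presentation machinery, a response that microglia can also mount when damaged nuclear DNA reaches the cytosol.

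Library totals were 145050 to 277680 counts for vehicle and 133598 to 249843 for UC2288. Sequence reads from Xist and from Y-linked genes placed 2 female and 2 male libraries in the vehicle group and 2 female and 3 male ones in the UC2288 group. Genes that mark homeostatic microglia were present throughout: 33 of 35 passed the filter on low counts. Their summed level was 22400 to 24000 CPM in vehicle and 22700 to 58580 in UC2288. Here CPM is a gene's counts relative to its library's total over genes past that filter, on a common scale adjusted by TMM. Neutrophil markers summed to 0 CPM in vehicle and to at most 5.23 in UC2288, and erythroid markers to 0 and at most 8.52. In those lists 6 of 7 and 3 of 5 measured genes were at 0 in all 9 libraries, among them S100a8, S100a9 and Hba-a1. Border macrophage markers summed to 454 to 664 CPM in vehicle and 332 to 552 in UC2288, with Cd163 at 0 in all 9. Monocyte markers ranged from 121 to 285 and from 106 to 335, with Ly6c2 and Hp at 0, and lymphocyte markers from 334 to 601 and from 368 to 614, with Cd79a at 0. Neuron markers ranged from 18.5 to 82.6 CPM in vehicle and 77.6 to 227 in UC2288, with Nefl and Slc17a7 at 0. Astrocyte markers ranged from 73.9 to 109 and from 25.6 to 200.2, with none of the 7 measured genes at 0 in all 9 libraries. Oligodendrocyte lineage markers ranged from 75.1 to 158 and from 49.0 to 213, with Mog at 0. Endothelial and mural markers ranged from 196 to 290.0 and from 290.1 to 411, with Cldn5 at 0, so these sums were higher in every UC2288 library. The part of these other cell types in the results below was not tested.

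The library labelled UC2288 Cre+ 3 stood apart from the vehicle libraries it is compared with. Its median Spearman correlation across genes was 0.685 with the vehicle Cre+ libraries but 0.759 with the vehicle Cre- libraries and 0.751 with the oil libraries. The libraries labelled UC2288 Cre+ 1 and 5 correlated with vehicle Cre+ at 0.848 and 0.81, within the 0.81 to 0.852 of the vehicle libraries among themselves. Library 2 stood at 0.749 with vehicle Cre+, above its 0.719 with vehicle Cre- and 0.703 with oil. Library 4 stood at 0.66 with vehicle Cre+, slightly below its 0.674 with vehicle Cre- and 0.679 with oil. The library labelled 3 was nevertheless above the oil libraries in Cdkn1a (567 CPM, against at most 199 CPM in oil) and in the summed type I interferon response genes (6551 CPM, against at most 1157 CPM in oil). Values without the library labelled 3 follow those with all libraries.

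**Figure D1:**
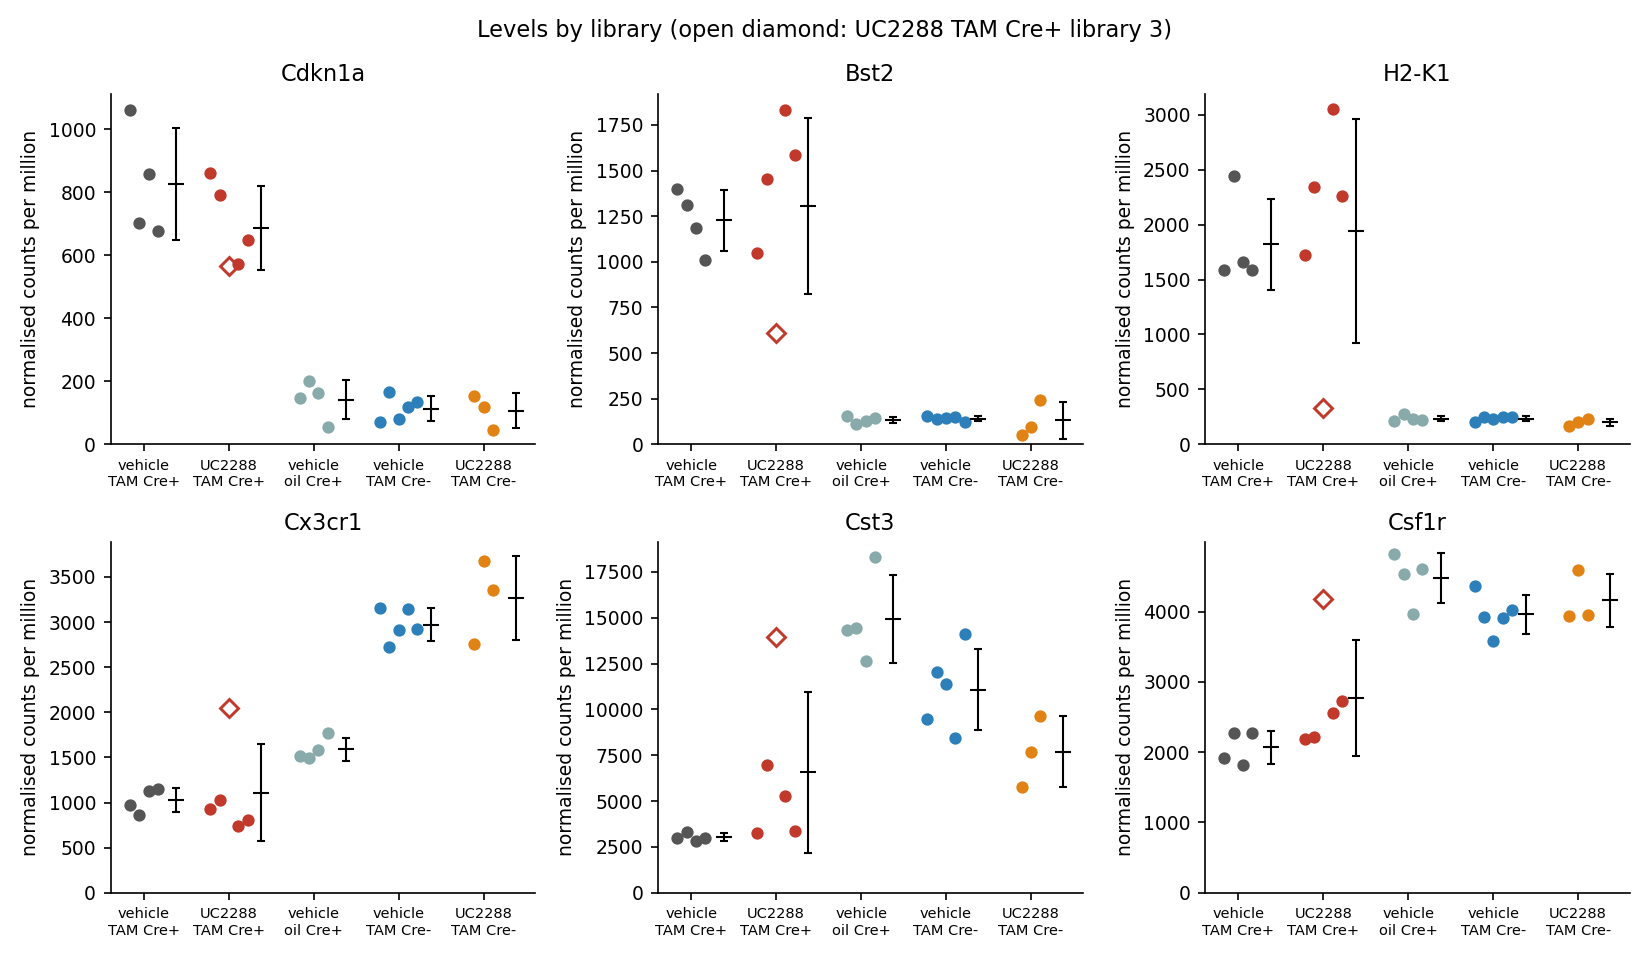
Levels of 6 genes in normalised CPM (vertical axes, starting at 0) in each library of the 5 groups. Points are libraries, the black bars are mean ± SD, and the open diamond is the library labelled UC2288 Cre+ 3. For H2-K1 (333), Cx3cr1 (2047), Cst3 (13940) and Csf1r (4179) the diamond lies away from the other UC2288 Cre+ libraries, whereas for Cdkn1a (567) it lies close to them.

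Cdkn1a, the gene named as the target, did not pass the test in either direction. This gene (chr17:29090976-29100727, GRCm38, plus strand) measured 1063, 702, 859 and 679 CPM in the 4 vehicle libraries and 862, 790, 567, 571 and 648 CPM in the 5 UC2288 libraries. The 2 groups overlapped, the lowest UC2288 libraries being those labelled 3 and 4. UC2288 gave a log2 fold change of -0.26 with a standard error of 0.237, a ratio of 0.835 with a 95% interval of 0.598 to 1.16 (edgeR quasi-likelihood test, adjusted p 0.608). Without the library labelled 3 it was -0.20 (ratio 0.873, interval 0.619 to 1.23, adjusted p 0.754). All 5 UC2288 Cre+ libraries lay above the 55.5 to 199 CPM of the oil libraries and the 69.3 to 165 CPM of the vehicle Cre- libraries. A fall of the mRNA to below 0.598 of the vehicle level lay outside the interval, while smaller falls could not be told from none at this number of libraries. The annotation places AC167363.2 on the opposite strand there, and reads of that pair may not be separated. p21 protein was not measured here. In these bulk samples fewer cells of a type and less RNA per cell cannot be told apart.

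Other members of the same pathway gave no call in either direction. Of 8 tested G1 inhibitors and cyclins none passed, with a median log2 fold change of -0.01 (-0.04 without the library labelled 3) beside 0.02 over all 4953 genes tested. Over all genes 0.727% passed, so 0 calls in lists of this size, here and below, say little about the lists. Of 8 tested p53 targets other than Cdkn1a none passed, with a median of 0.01 (0.04 without the library labelled 3). Mdm2, the ubiquitin ligase that restrains p53, had a log2 fold change of 0.08 (adjusted p 0.921) and 0.17 without the library labelled 3 (adjusted p 0.840), and Bax, which opens the mitochondrial membrane in apoptosis, one of 0.15 (adjusted p 0.816) and 0.12 (adjusted p 0.873). Ccng1, encoding cyclin G1, was at -0.27 (adjusted p 0.657) and -0.14 (adjusted p 0.865). Cdk6, a kinase that drives G1, was at -0.15 (adjusted p 0.783) and -0.06 (adjusted p 0.936).

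Ccnd1, encoding cyclin D1, had the lowest p of the genes named here from these lists. It measured 207, 180, 301 and 302 CPM in vehicle and 200.2, 99.4, 77.9, 153 and 177 CPM in UC2288. Only the library labelled UC2288 1 reached the range of the vehicle libraries. Its log2 fold change of -0.77 ± 0.255 (SE) did not pass the test over all genes (adjusted p 0.112), nor did -0.63 without the library labelled 3 (adjusted p 0.223). Leaving out the library labelled UC2288 1 brought it past the threshold, at -0.96 (edgeR adjusted p 0.0364). That fit called 266 of 4837 genes tested, and it was the only 1 of 23 alternative fits in which Ccnd1 passed.

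Genes of the cell division cycle were not called. None of 20 tested S phase genes passed, beside 0.727% over all genes. Their median log2 fold change was 0.23 with and without the library labelled 3. Pcna, the sliding clamp of DNA replication, measured 158, 134, 112 and 90.5 CPM in vehicle and 139, 225, 213, 281 and 85.1 CPM in UC2288. Its groups overlapped and its log2 fold change was 0.55 (adjusted p 0.316), or 0.50 without the library labelled 3 (adjusted p 0.440). None of 35 tested G2 and mitosis genes passed either, and their median changed sign, from 0.16 with all libraries to -0.12 without the library labelled 3. Top2a, a topoisomerase of dividing cells, was at -0.26 (adjusted p 0.591) and -0.39 without that library (adjusted p 0.444). Tubb5, a beta tubulin, was at 0.48 (adjusted p 0.171) and 0.54 (adjusted p 0.151). Of 7 tested DNA break sensing and repair genes none passed, with a median of -0.12 (-0.39 without the library labelled 3).

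Type I interferon response genes stayed far above the oil and Cre- levels under UC2288. The 45 genes of the type I interferon list summed to 11790 to 13740 CPM in vehicle. In the UC2288 libraries labelled 1, 2, 4 and 5 they summed to 10760, 13570, 15820 and 13480 CPM, and in the one labelled 3 to 6551 CPM. The oil libraries ranged from 830 to 1157 CPM and the vehicle Cre- libraries from 792 to 1247 CPM, so every UC2288 Cre+ library exceeded both. None of the 43 tested members passed in UC2288 versus vehicle, beside 0.727% over all genes. Their median log2 fold change was -0.16 with all libraries and 0.05 without the library labelled 3, beside 0.02 and 0.01 over all genes.

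Single interferon genes showed the same spread. Bst2, which tethers budding virus to the cell, measured 1400, 1311, 1186 and 1010 CPM in vehicle and 1050, 1455, 609, 1832 and 1584 CPM in UC2288. The library labelled 3 was the lowest of the 9 and those labelled 4, 5 and 2 were the highest. With all libraries the log2 fold change was 0.08 (edgeR adjusted p 0.900) and 0.26 without the library labelled 3 (adjusted p 0.617). It turned slightly negative, to -0.02, when libraries were scaled by total counts. Lgals3bp, a secreted glycoprotein, had a log2 fold change of 0.04 (adjusted p 0.963) that also turned, to -0.06, under that scaling, and was 0.22 without the library labelled 3 (adjusted p 0.687). Ccl12, a chemokine for monocytes, was at -0.22 (adjusted p 0.684) and -0.12 without that library (adjusted p 0.865). Ccl2, a chemokine of the same kind, was at -0.35 (adjusted p 0.585) and -0.12 (adjusted p 0.880).

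Class I antigen presentation genes ranged widely between single UC2288 libraries, with a summed level of 11290 to 27920 CPM (18240 to 27920 CPM without the library labelled 3) against 15400 to 20970 CPM in vehicle. H2-K1, a class I heavy chain, measured 1584, 2442, 1664 and 1591 CPM in vehicle. In UC2288 it measured 1724, 2345, 333, 3051 and 2264 CPM. The value of the library labelled 3 was far below the other 8 and close to the 215 to 271 CPM of the oil libraries, while the other 4 UC2288 libraries overlapped with vehicle. With all libraries the log2 fold change was 0.09 (adjusted p 0.904), and 0.36 ± 0.181 (SE) without the library labelled 3 (adjusted p 0.349). H2-D1, the other classical heavy chain named here, was at 0.07 (adjusted p 0.927) and 0.30 (adjusted p 0.483). Both turned slightly negative under scaling by total counts with all libraries. B2m, the light chain shared by class I molecules, was at 0.33 (adjusted p 0.455) and 0.50 (adjusted p 0.216). None of 21 tested genes of the class I list passed, beside 0.727% over all genes. Their median was 0.07 with all libraries and 0.25 without the library labelled 3.

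Among homeostatic microglia genes 1 of 33 tested passed, Cst3, and it did so only with the library labelled 3. Over all genes 0.646% passed with a higher level and 0.0808% with a lower one. Cst3, encoding the secreted protease inhibitor cystatin C, measured 2985, 3323, 2806 and 2963 CPM in vehicle and 3265, 6961, 13940, 5275 and 3371 CPM in UC2288. The libraries labelled 2, 3 and 4 lay above all vehicle libraries, 5 lay just above them, and 1 fell within their range. Its log2 fold change was 1.12 ± 0.276 (SE, edgeR adjusted p 0.0462) and dropped to 0.64 without the library labelled 3 (adjusted p 0.147). The call was lost in 7 of 9 fits that left out 1 library, holding only without the library labelled UC2288 1 or 5. The median of the list moved from 0.42 to 0.05 without the library labelled 3.

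Cx3cr1, the chemokine receptor gene that carries the Cre allele, measured 973, 863, 1124 and 1146 CPM in vehicle and 924, 1031, 2047, 742 and 812 CPM in UC2288. Apart from the library labelled 3 the groups overlapped. Its log2 fold change was 0.11 (adjusted p 0.830) and turned to -0.22 without that library (adjusted p 0.578). The oil libraries, which carry the same allele, measured 1492 to 1767 CPM and the vehicle Cre- libraries 2719 to 3158 CPM, so the library labelled 3 lay between them. Csf1r, the receptor for the survival factors of microglia, measured 1911, 2271, 1820 and 2277 CPM in vehicle and 2182, 2214, 4179, 2565 and 2723 CPM in UC2288. Here too the library labelled 3 stood alone, with a log2 fold change of 0.42 (adjusted p 0.229) with it and 0.23 without it (adjusted p 0.529). Lgmn, a lysosomal protease, was at 0.37 (adjusted p 0.249) and 0.27 (adjusted p 0.435).

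Mrc1 encodes CD206, the surface protein by which border macrophages were excluded in the sort. It measured 109, 115, 163 and 67.9 CPM in vehicle and 81.7, 89.0, 319, 93.8 and 124 CPM in UC2288. The library labelled 3 again exceeded the others and lay in the range of 311 to 485 CPM of the vehicle Cre- libraries and 317 to 373 CPM of the oil libraries. Its log2 fold change was 0.22 (adjusted p 0.768) with all libraries and -0.29 (adjusted p 0.663) without the library labelled 3. Dab2 and Stab1, an endocytic adaptor and a scavenger receptor of macrophages, were at -0.54 (adjusted p 0.203) and -0.92 (adjusted p 0.129). Without the library labelled 3 they were at -0.52 (adjusted p 0.268) and -0.70 (adjusted p 0.258).

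The remaining lists of microglial state and signalling held no called gene, beside 0.727% called over all genes. Disease-associated microglia genes (22 tested) had a median log2 fold change of 0.26, or 0.27 without the library labelled 3, and genes of axon tract and proliferative pup microglia (12 tested) one of 0.37, or 0.33 without that library. Apoe, the lipid carrier, was at 0.14 (adjusted p 0.798) with all libraries and 0.12 (adjusted p 0.855) without the library labelled 3. Ctsb, a lysosomal protease, was at 0.15 (adjusted p 0.684) and 0.21 (adjusted p 0.592). Ctsl, another cathepsin, was at 0.42 (adjusted p 0.248) and 0.26 (adjusted p 0.519). Lpl, which releases fatty acids from lipoproteins, was at -0.51 (adjusted p 0.351) and -0.40 (adjusted p 0.543). Lysosomal proteases and hydrolases (33 tested) had a median of 0.21 with and without the library labelled 3, and Nrf2 targets (14 tested) one of 0.32 and 0.40. Immediate early genes (16 tested) stood at 0.20 and 0.19, and glucocorticoid-responsive genes (12 tested) at 0.14 and 0.23. Chemokines (10 tested) stood at 0.02 and 0.11. NF-kB feedback genes (16 tested) changed sign, from -0.02 to 0.16. Growth factor signalling genes (8 tested) had medians of -0.04 and -0.01.

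**Figure D2:**
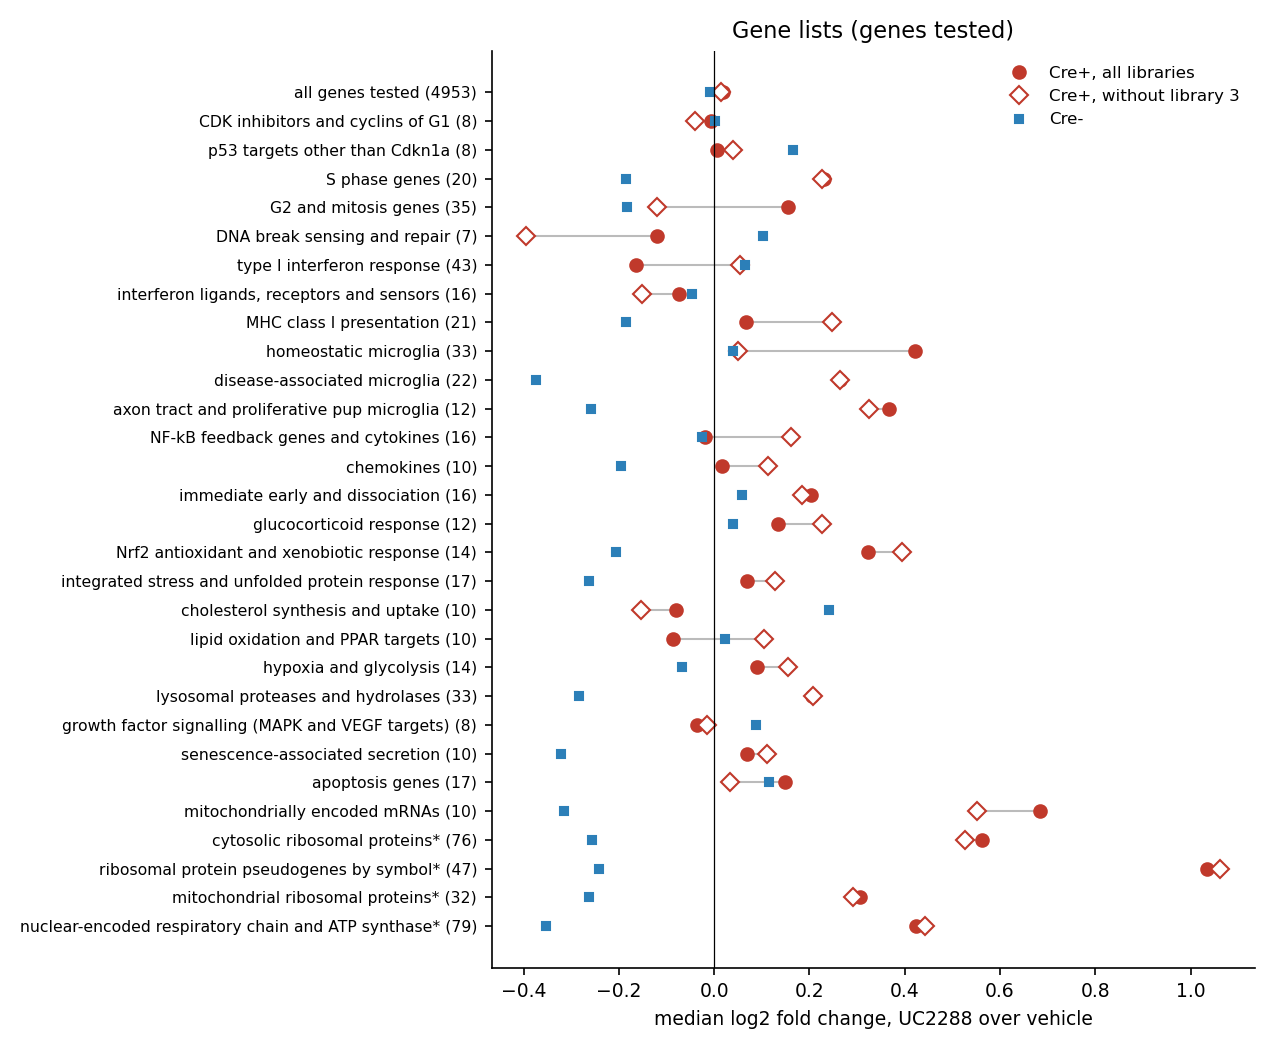
Median log2 fold change of UC2288 over vehicle (horizontal axis) for all genes and for gene lists with at least 7 tested genes, with the number tested in brackets. Filled circles are Cre+ with all libraries, open diamonds Cre+ without the library labelled 3, and squares Cre-, and lists with an asterisk were added after the values were seen. The interferon list moves from -0.16 to 0.05 and the homeostatic list from 0.42 to 0.05, while cytosolic ribosomal protein genes stay at 0.56 and 0.53.

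Across all genes, 36 of 4953 passed the test, 32 higher and 4 lower under UC2288, which is 0.727% of those tested, and 831 had an unadjusted p below 0.05. Without the library labelled 3, 12 of 4963 passed (0.242%), 11 higher and 1 lower, and 719 had an unadjusted p below 0.05. All 12 were among the 36. The count rested on single libraries in both groups: it was 266 without the library labelled UC2288 1 and 101 without 5, but 4 without 2 and 3 without 4. Leaving out vehicle libraries 1, 2, 3 and 4 gave 2, 9, 1 and 28 calls. Of the 36 genes, Gm10163 passed in all 9 of these fits.

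Ribosomal protein genes and their pseudogenes made up most of the higher calls. Of these 32, 10 carried the symbol of a ribosomal protein pseudogene, 15 were predicted gene models, and the other 7 were Wdr89, Sftpa1, Tprgl, Rpl37a, Rpl37, Ndufa13 and Cst3. In 27 of the 36 called genes the last 500 bases of the transcript held at least 81 bases, the length of the insert read, that were at least 95% identical to another gene. That was 75.0% of them, against 91.7% of the 12 called without the library labelled 3 and 10.9% of the 4951 tested genes found in GENCODE M21. None of the 4 lower genes had such a near copy. For 22 of the 36 the closest named copy was a ribosomal protein gene. Counts of these genes are therefore uncertain, because the handling of reads that match several places is not given in the sources used here.

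**Figure D3:**
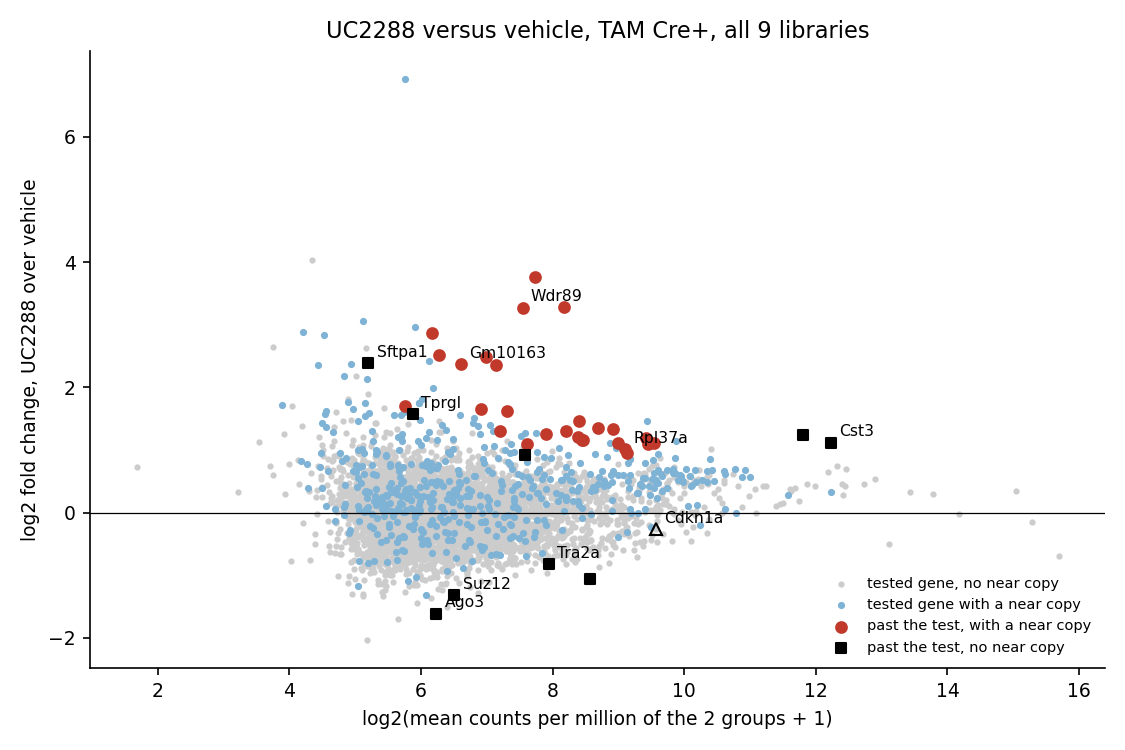
Log2 fold change of UC2288 over vehicle in Cre+ libraries (vertical axis) against the mean level of the groups (horizontal axis, log2 scale) for the 4953 tested genes. Small points are genes that did not pass, blue where a near copy was found; red circles passed and have a near copy, black squares passed and have none, and the open triangle is Cdkn1a. The called genes lie mainly above 0 and 27 of the 36 are red.

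The following stretches show how close these copies are over the length of a read. The 3 stretches are the last 81 coding bases, stop codon included, of Rpl9, Rpl28 and Rpl10a, each identical in the pseudogene, so that a read from within them has no base to tell the genes apart. All are from GENCODE M21 on GRCm38, 5′ to 3′.
Rpl9, chr5:65388573-65388653, minus strand, and Rpl9-ps6, chr19:32465973-32466053, minus strand: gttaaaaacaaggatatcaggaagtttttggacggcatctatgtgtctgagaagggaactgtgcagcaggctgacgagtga
Rpl28, chr7:4794427-4794507, plus strand, and Rpl28-ps1, chr1:128038902-128038982, plus strand: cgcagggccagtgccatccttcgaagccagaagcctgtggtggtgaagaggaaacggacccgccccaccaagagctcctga
Rpl10a, chr17:28330920-28331000, plus strand, and Rpl10a-ps1, chr1:64993951-64994031, minus strand: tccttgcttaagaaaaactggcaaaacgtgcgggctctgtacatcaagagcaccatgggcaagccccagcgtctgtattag

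Wdr89, a WD repeat protein gene (chr12:75630596-75669537, minus strand), measured 52.6, 13.8, 21.8 and 45.2 CPM in vehicle and 77.6, 78.5, 397, 699 and 438 CPM in UC2288. All 5 UC2288 libraries exceeded all 4 vehicle libraries. UC2288 over vehicle gave 3.27 on the log2 scale ± 0.571 (SE, edgeR adjusted p 0.00418) and 3.19 without the library labelled 3 (adjusted p 0.00907). The call was lost without vehicle library 3, at 3.07 (adjusted p 0.080). Within its last 500 bases the gene holds 167 bases identical to Rplp2, which encodes a protein of the ribosomal stalk, so its reads cannot be told from that gene there.

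Gm10163, a processed pseudogene (chr9:88390837-88391317, plus strand) that is 99.6% identical to Rpl21 over 481 bases, had the smallest p of all genes. It lies opposite Snx14, and reads of that pair may not be separated. It measured 33.8, 9.23, 43.5 and 30.2 CPM in vehicle and 106, 99.4, 326, 196 and 91.6 CPM in UC2288. The groups did not overlap, and the library labelled 3 was the highest. UC2288 over vehicle stood at a log2 fold change of 2.37 ± 0.381 (SE, edgeR adjusted p 0.00182), and 1.96 without that library (adjusted p 0.00629).

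Rpl9-ps6, a copy of the gene for ribosomal protein L9, measured 128, 189, 174 and 226 CPM in vehicle and 221, 550, 531, 895 and 288 CPM in UC2288. Its groups overlapped only through the library labelled UC2288 1. The log2 fold change was 1.46 (edgeR adjusted p 0.0264), and 1.43 without the library labelled 3 (adjusted p 0.0436). The other 5 named pseudogenes, Rpl10a-ps1, Rps12-ps2, Rpl28-ps1, Rpl17-ps3 and Rpl35a-ps2, had log2 fold changes of 1.35, 1.25, 1.21, 1.20 and 1.16. Their adjusted p was 0.0264 for the first and 0.0462 for the other 4, and between 0.0550 and 0.0846 without the library labelled 3, so each of these 5 calls was lost.

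The functional ribosomal protein genes lay on the same side, a list added after its values were seen. All 76 tested cytosolic members had a positive log2 fold change, with a median of 0.56 (0.53 without the library labelled 3), beside 2553 positive of 4953 genes and a median of 0.02. Of the 76, 2 passed the test, Rpl37a and Rpl37, both components of the large subunit, beside 36 of 4953 over all genes. An unadjusted p below 0.05 was found for 62 of the 76, beside 831 of the 4953. The median was 0.55 with DESeq2 size factors and 0.46 under total counts, and all 76 stayed positive under both. Rpl37a measured 248, 392.3, 239 and 596 CPM in vehicle and 503, 864, 602, 1031 and 661 CPM in UC2288. Vehicle library 4 lay above the lowest UC2288 library, so the groups overlapped. The log2 fold change was 1.02 ± 0.237 (SE, edgeR adjusted p 0.0376) and 1.08 without the library labelled 3 (adjusted p 0.0436). Rpl37 was at 1.11 (adjusted p 0.0462) and lost its call without that library (1.16, adjusted p 0.0596).

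As a share of each library, cytosolic ribosomal protein genes took 4.93% ± 0.811 (SD, n = 4) of the counts in vehicle and 6.83% ± 1.07 (SD, n = 5) in UC2288. The ranges were 3.85 to 5.82% and 5.65 to 7.98% and overlapped. Pseudogenes of all kinds took 2.28 to 3.11% in vehicle and 2.91 to 6.46% in UC2288. The libraries labelled 2, 3 and 4 had the highest shares of pseudogenes, at 5.40, 4.93 and 6.46%. Those labelled 1 and 5, at 3.41 and 2.91%, were close to vehicle. The oil libraries had 8.45 to 9.36% of their counts in ribosomal protein genes, the vehicle Cre- libraries 7.16 to 8.33% and the UC2288 Cre- libraries 6.12 to 8.37%, all above vehicle Cre+ with tamoxifen.

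Malat1, a long nuclear RNA singled out after its values were seen, lay the other way. It measured 9030, 9753, 11350 and 11510 CPM in vehicle and 8687, 8238, 7387, 5565 and 7036 CPM in UC2288. All UC2288 libraries were below all vehicle libraries. This log2 fold change of -0.50 ± 0.193 (SE) did not pass the test over all genes (edgeR adjusted p 0.187), nor did it without the library labelled 3 (-0.49, adjusted p 0.219). The part of RNA quality in these shares was not tested.

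**Figure D4:**
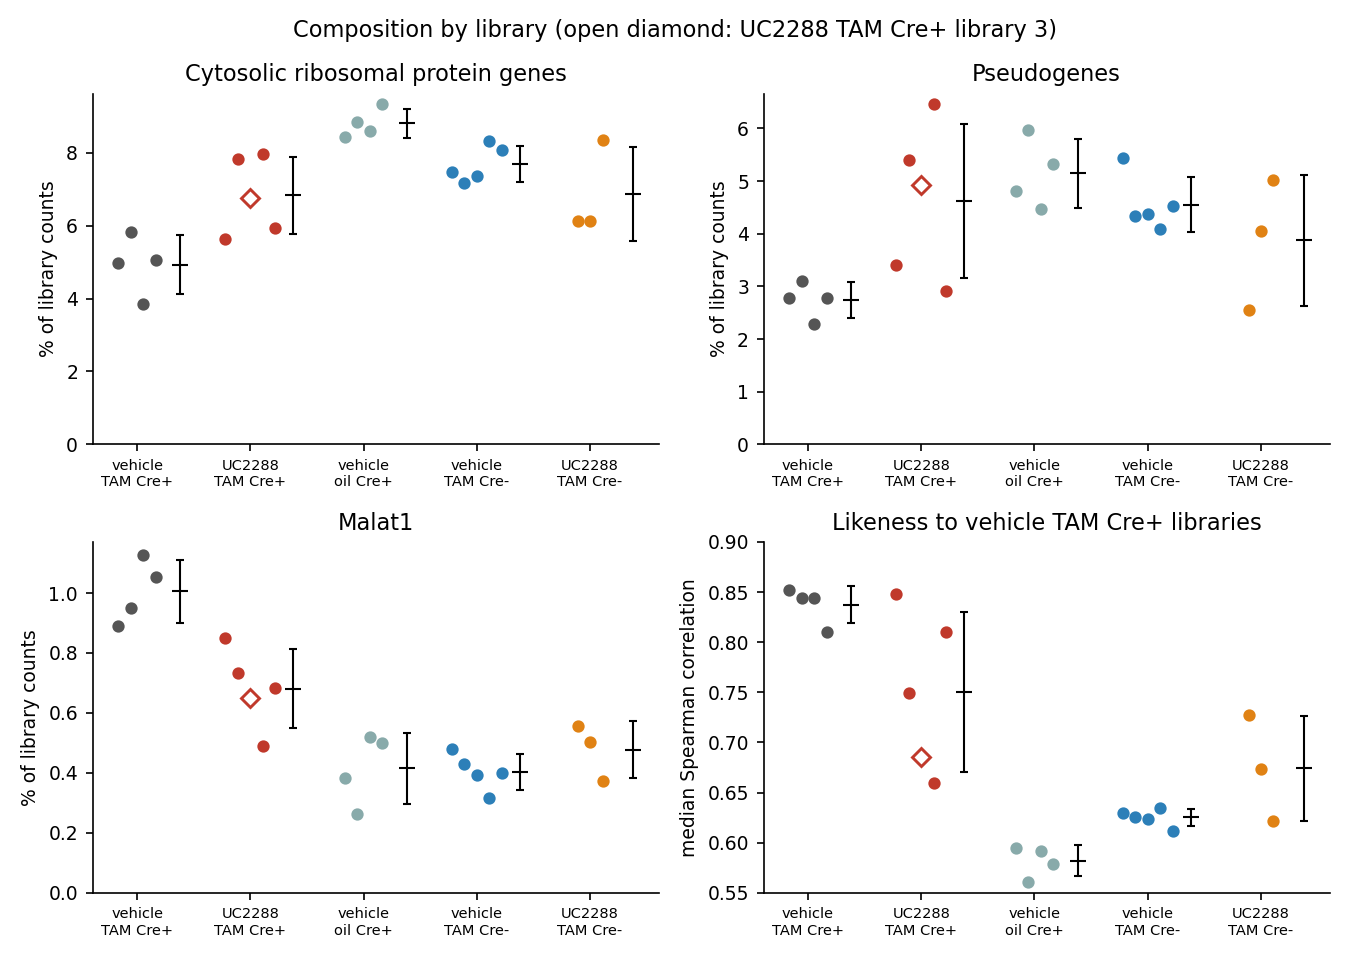
Share of library counts (%) in cytosolic ribosomal protein genes, pseudogenes and Malat1, on axes starting at 0, and the median Spearman correlation with the vehicle Cre+ tamoxifen libraries, on an axis from 0.55 to 0.90, for each library of the 5 groups. Points are libraries, black bars mean ± SD, and the open diamond is the library labelled UC2288 Cre+ 3. Malat1 shares of vehicle (0.891 to 1.13%) and UC2288 (0.489 to 0.851%) do not overlap, and the UC2288 libraries spread from 0.66 to 0.848 in correlation.

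Genes of energy metabolism were on the positive side as well. All 10 tested mitochondrially encoded mRNAs had a positive log2 fold change, with a median of 0.68 (0.55 without the library labelled 3), and none passed the test. As a share of unscaled library counts, all genes of the mitochondrial chromosome together differed little. They took 8.78% ± 0.823 (SD, n = 4) in vehicle and 9.125% ± 1.04 (SD, n = 5) in UC2288. Without the library labelled 3 the UC2288 share was 8.78%. The ranges of 7.76 to 9.59% and 8.01 to 10.5% overlapped. mt-Cytb, a subunit of complex III, measured 5358, 4551, 3832 and 3453 CPM in vehicle and 5185, 8143, 9618, 6844 and 5255 CPM in UC2288. The libraries labelled 2, 3 and 4 exceeded all vehicle libraries and those labelled 1 and 5 did not. For this gene the log2 fold change was 0.70 (adjusted p 0.0851) and 0.57 without the library labelled 3 (adjusted p 0.176). mt-Nd1, a subunit of complex I, was at 0.54 (adjusted p 0.135) and 0.50 (adjusted p 0.212). Of 79 tested nuclear genes for the respiratory chain and ATP synthase, a list added after its values were seen, 75 were positive with a median of 0.42 (0.44 without the library labelled 3). Over all genes 2553 of 4953 were positive and 0.646% were called higher. Of the 79, 1 passed, Ndufa13, a further subunit of complex I. It measured 139, 175, 105 and 98.0 CPM in vehicle and 176, 288, 205, 307 and 275 CPM in UC2288. The lowest UC2288 library, at 175.7 CPM, lay just above the highest vehicle library, at 175.4 CPM. The log2 fold change was 0.92 (edgeR adjusted p 0.0462) and the call was lost without the library labelled 3 (0.97, adjusted p 0.0550). It held in 2 of the 9 fits that left out 1 library. Ndufa13 overlaps Yjefn3 on the same strand and Tssk6 on the other, and reads of these genes may not be separated.

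Sftpa1 and Tprgl were also called higher, and neither had a near copy. Sftpa1, known as a surfactant collectin of the lung, measured 7.51, 4.62, 14.5 and 15.1 CPM in vehicle and 20.4, 31.4, 70.8, 111 and 72.0 CPM in UC2288. The groups did not overlap, though vehicle levels were close to the limit of counting. Its log2 fold change was 2.39 ± 0.551 (SE, edgeR adjusted p 0.0376), and 2.30 without the library labelled 3 (adjusted p 0.0676). Tprgl, which encodes a synaptic vesicle protein, was at 1.58 (adjusted p 0.0479) and lost its call without the library labelled 3 (1.33, adjusted p 0.129). Of the 9 fits that left out 1 library, Sftpa1 kept its call in 3 and Tprgl in 2. Tprgl overlaps Wrap73 on the other strand, and reads of that pair may not be separated.

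In all, 4 genes were called lower under UC2288. Of the 9 fits that left out 1 library, Ago3 kept its call in 2, Suz12 and E230029C05Rik in 3 each and Tra2a in 4. Ago3, one of the Argonaute proteins that carry small RNAs, measured 90.1, 96.9, 131 and 128 CPM in vehicle and 36.8, 15.7, 56.7, 42.6 and 32.7 CPM in UC2288. All UC2288 libraries lay below all vehicle libraries. UC2288 over vehicle gave a log2 fold change of -1.61 ± 0.391 (SE, edgeR adjusted p 0.0462) and missed the threshold without the library labelled 3, at -1.80 (adjusted p 0.0538). Suz12, a core subunit of the Polycomb complex PRC2, measured 165, 78.5, 123 and 151 CPM in vehicle and 65.4, 31.4, 42.5, 42.6 and 72.0 CPM in UC2288. These groups did not overlap either, at -1.31 ± 0.317 (SE, adjusted p 0.0462), or -1.26 without the library labelled 3 (adjusted p 0.0806). The annotation places Gm26563 on the opposite strand of Suz12, and reads of that pair may not be separated.

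Tra2a, a splicing regulator, kept its call with and without the library labelled 3. It measured 274, 392.3, 286 and 302 CPM in vehicle and 180, 168, 213, 128 and 196 CPM in UC2288. No UC2288 library reached the vehicle range. The log2 fold change was -0.82 ± 0.190 (SE, edgeR adjusted p 0.0376), and -0.88 without the library labelled 3 (adjusted p 0.0436). Leaving out UC2288 library 2 or 4, or vehicle library 1, 2 or 3, ended the call, with values from -0.88 to -0.69. Gm43980 lies on the opposite strand of Tra2a, and reads of that pair may not be separated. E230029C05Rik, a long noncoding RNA outside the rule for named genes, was at -1.06 (adjusted p 0.0376) and lost its call without the library labelled 3 (-0.99, adjusted p 0.0779). E230029C05Rik overlaps Gm44860 and Gm44861 on the same strand and Eed on the other. The sources used here do not say that counting used strand, and reads of these genes may not be separated.

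Further genes with the smallest unadjusted p on the lower side did not pass. They included Kmt2a, a histone H3 methyltransferase, at a ratio of 0.499 (adjusted p 0.0577), or 0.485 without the library labelled 3 (adjusted p 0.0812). Dnmt3a, which methylates DNA de novo, had a log2 fold change of -0.97 (adjusted p 0.0631), or -0.88 without that library (adjusted p 0.131). Rapgef2, an activator of Rap GTPases, was at -1.70 (adjusted p 0.0510) and -1.68 (adjusted p 0.0836). Kmt2a measured 161, 189, 210 and 362 CPM in vehicle and 123, 62.8, 127, 111 and 137 CPM in UC2288, with no overlap. Dnmt3a measured 259, 300, 355 and 377 CPM in vehicle and 237, 136, 120, 128 and 177 CPM in UC2288, also with no overlap.

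The 32 genes called higher did not move equally in the 5 UC2288 libraries. As a description of the genes so chosen, their median log2 ratio to the vehicle mean (with 1 CPM added) was 0.63, 1.45, 1.57, 1.89 and 0.56 in the libraries labelled 1 to 5. The vehicle libraries ranged from -0.37 to 0.18. In the other groups the same median was 1.17 to 1.80 in oil, 1.20 to 1.49 in vehicle Cre- and 0.40 to 1.46 in UC2288 Cre-. Vehicle Cre+ with tamoxifen had the lowest levels of these genes, a rank favoured by choosing them as lower there than in UC2288 Cre+. The libraries labelled UC2288 1 and 5 were the nearest to vehicle among the UC2288 Cre+ libraries.

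The vehicle Cre+ tamoxifen libraries are the treated arm of tamoxifen over oil and the control arm of UC2288 over vehicle. They therefore enter the 2 comparisons with opposite sign, which by itself pushes a gene's values to opposite signs, and the values are set side by side with nothing read from their signs. Tamoxifen against oil in vehicle Cre+ pups gave 1556 calls (31.4%), 799 higher and 757 lower. Cdkn1a had a log2 fold change of 2.54 ± 0.290 (SE, edgeR adjusted p 3.2e-08) for tamoxifen over oil and -0.26 for UC2288 over vehicle. H2-K1 was at 2.96 and 0.09 in these comparisons, Bst2 at 3.19 and 0.08, Cst3 at -2.30 and 1.12, and Csf1r at -1.11 and 0.42. Rpl37a was at -1.45 and 1.02, Suz12 at 1.18 and -1.31, and Tra2a at 1.09 and -0.82. Cytosolic ribosomal protein genes had medians of -0.94 and 0.56, with 71 of 76 called lower for tamoxifen over oil.

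In Cre- pups, which carry no Cre allele, UC2288 against vehicle gave 1 call of 4953 (0.0202%), and 470 genes had an unadjusted p below 0.05. That gene was Pim1, a serine/threonine kinase. It measured 20.8, 17.1, 21.1, 24.9 and 11.6 CPM in vehicle Cre- and 159, 68.5 and 85.4 CPM in UC2288 Cre-. In Cre+ pups it measured 124, 115, 120 and 143 CPM in vehicle and 110, 126, 92.1, 34.1 and 78.5 CPM in UC2288, where the groups overlapped. The log2 fold change was 2.47 ± 0.400 (SE, edgeR adjusted p 0.00216) in Cre- and -0.44 (adjusted p 0.444) in Cre+. The library labelled UC2288 Cre- 1 had the highest Pim1 value and 719 CPM of neutrophil markers, against 0 in those labelled 2 and 3. Without it 0 genes were called in Cre-. The part of other cell types in the Pim1 call was not tested. Cdkn1a was at -0.09 (adjusted p 0.956) in Cre- pups, whose vehicle level was low.

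The difference of the UC2288 effect between Cre+ and Cre- was tested as an interaction and passed for 96 genes (1.94%), 47 higher (0.949%) and 49 lower (0.989%) in Cre+. Without the library labelled UC2288 Cre+ 3 it passed for 41 (0.826%), 20 and 21. The count ran from 1, without UC2288 Cre- library 1, to 533, without UC2288 Cre- library 3, and the Cre- arm of the contrast has 3 UC2288 libraries. UC2288 Cre- library 1, the one with neutrophil markers, held the highest value of its group for Pim1, Rreb1, Herc1, Suz12, Ago3, Dnmt3a and Stab1. For Tra2a and E230029C05Rik it did not. For Herc1 its 164 CPM lay close to the 154 CPM of UC2288 Cre- library 2, and for Stab1 its 212 CPM close to 205.5 CPM. For Suz12 the values were apart, at 164 and 59.95 CPM. The part of other cell types in these differences was not tested. Scaling by total counts left 117 calls but moved the split to 21 higher and 96 lower, and DESeq2 size factors gave 37 and 55. A near copy was found for 28 of the 47 higher genes and 1 of the 49 lower genes.

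Wdr89 had a difference of 4.98 ± 0.787 (SE, edgeR adjusted p 0.00134), being at 3.27 in Cre+ and -1.71 in Cre-. Without the library labelled UC2288 Cre+ 3 it was 4.89 (adjusted p 0.00301). Pim1 differed by -2.91 both with (adjusted p 0.0023) and without that library (adjusted p 0.00383). Rreb1, a zinc finger transcription factor, differed by -2.35 ± 0.432 (SE, edgeR adjusted p 0.0069), at -0.88 in Cre+ and 1.47 in Cre-. It measured 93.9, 102, 127 and 106 CPM in vehicle Cre+ and 53.1, 52.3, 49.6, 59.7 and 78.5 CPM in UC2288 Cre+, with no overlap. In Cre- pups it measured 55.4, 56.9, 31.7, 31.1 and 40.7 CPM in vehicle and 164, 111 and 79.7 CPM in UC2288, the opposite order and again with no overlap. Neither effect passed alone (adjusted p 0.109 in Cre+ and 0.107 in Cre-). Herc1, a large ubiquitin ligase, differed by -2.09 (adjusted p 0.0141), with ratios of UC2288 to vehicle of 0.663 in Cre+ and 2.83 in Cre-. Rreb1 differed by -2.31 (adjusted p 0.0141) and Herc1 by -2.05 (adjusted p 0.0221) without the library labelled UC2288 Cre+ 3.

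Of the 4 genes called lower in Cre+, 3 are protein coding, and each had a positive value in Cre-. The Cre+ comparison that chose them is part of the difference, which favours a difference of the same sign. Suz12 differed by -2.27 (adjusted p 0.020), Ago3 by -2.28 (adjusted p 0.0461) and Tra2a by -1.08 (adjusted p 0.0434). Dnmt3a differed by -1.64 (adjusted p 0.041). Among higher genes, Cst3 differed by 1.65 (adjusted p 0.0398) and Rpl37a by 1.27 (adjusted p 0.0463). Without the library labelled UC2288 Cre+ 3 the test was still passed by Suz12 at -2.23 (adjusted p 0.0354), Ago3 at -2.47 (adjusted p 0.0466) and Tra2a at -1.15 (adjusted p 0.0466). It was no longer passed by Dnmt3a at -1.56 (adjusted p 0.0565), Cst3 at 1.16 (adjusted p 0.0509) or Rpl37a at 1.32 (adjusted p 0.0509). No difference was detected for Cdkn1a, at -0.18 ± 0.427 (SE, adjusted p 0.842) and -0.12 without that library (adjusted p 0.906), or for Bst2, at 0.18 (adjusted p 0.837) and 0.36 (adjusted p 0.629). Mitochondrially encoded mRNAs had a median log2 fold change of 0.68 in Cre+ and -0.32 in Cre-, and cytosolic ribosomal protein genes 0.56 and -0.26, with 0 of 10 and 3 of 76 differences past the test.

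**Figure D5:**
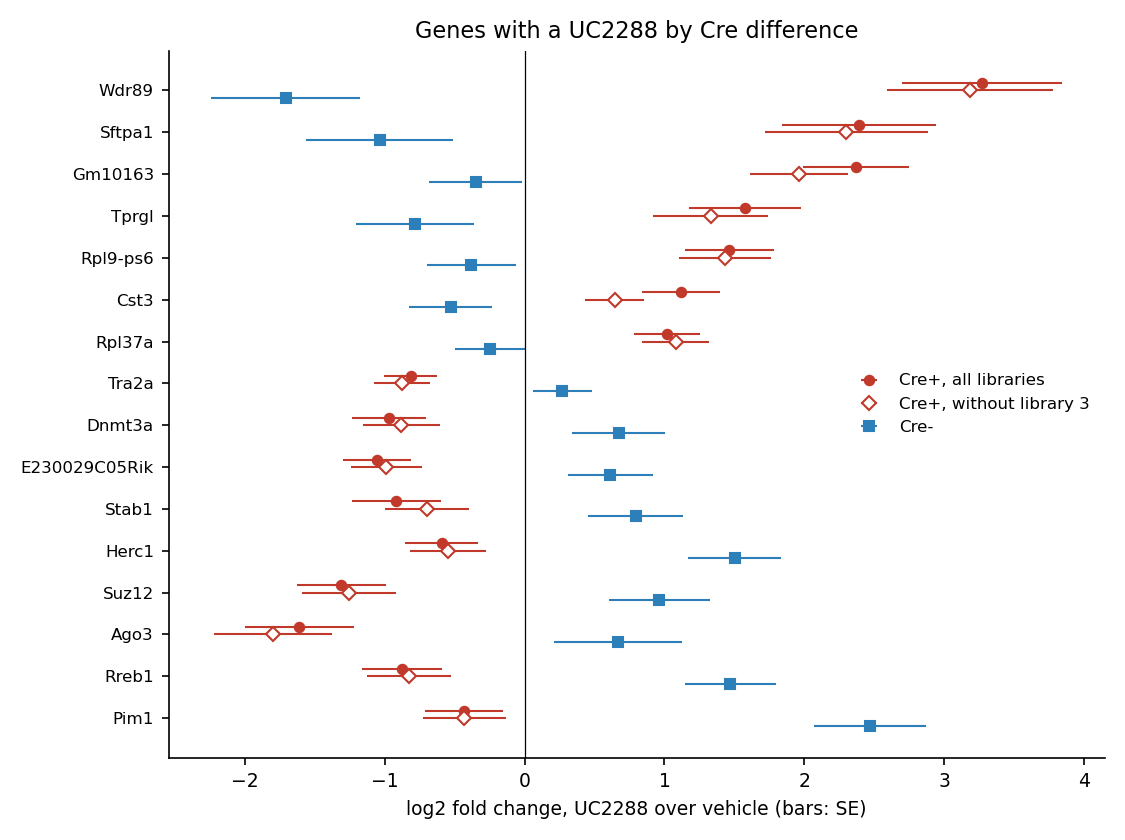
Log2 fold change of UC2288 over vehicle (horizontal axis, bars are SE) in Cre+ with all libraries (filled circles), in Cre+ without the library labelled 3 (open diamonds) and in Cre- (squares), for the named genes whose UC2288 effect differed between genotypes. Estimates for Cre+ and Cre- lie on opposite sides of 0 for all 16 genes, and the diamonds stay on the side of the circles. Choosing genes by that difference favours opposite sides, and the diamonds share libraries with the circles.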

How the data were processed

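The authors deposited whole-number counts per gene and library in a table of 21 libraries, with no library pooled. Tools listed in the submitters' processing notes are HISAT2, featureCounts, Trim Galore and UMI-tools, with GRCm38 as the build and no versions. Whether strand was used and whether counts are deduplicated molecules is not given in the sources used here. Reads carried an insert of 81 nt, 10 nt of identifier and 9 nt of barcode, per the labels, and 15 of 30 µL of lysate were used.

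All 21 libraries of the 5 groups entered 1 fit with edgeR 4.0.16 (TMM scaling, filterByExpr by group, glmQLFit and glmQLFTest, in R 4.3.3) with 1 coefficient per group. The filter kept 4953 genes, or 4963 without the library labelled UC2288 Cre+ 3. Benjamini-Hochberg adjustment was over all genes tested, with a threshold of 0.05. Standard errors are the log2 fold change over the root of the test's F value, and intervals use 95% of the t distribution at the fit's degrees of freedom. The code was tested on simulated data. Replicate libraries were checked for duplicates by chi-square and none was found.

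The members and the gene lists were chosen with earlier results of these data known. Named genes are Cdkn1a and Cx3cr1, the 10 called genes with the largest change each way that are not predicted models and reach 20 CPM (filled by smallest p where fewer were called), up to 4 called and the 3 most abundant genes of each list, and the 5 most called in the difference; genes named outside this rule are said to be so. One gene that the rule takes is not reported here. Near copies were searched with blastn (megablast) against GENCODE M21 transcripts. Alternatives were other scaling, filters and tools (DESeq2 1.42.0, limma 3.58.1), a sex term, a replicate block and left-out libraries.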

Additional observations from a re-analysis of the deposited data

Results flagged for a closer look

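In groups of 4 or 5 libraries, 9 of 114 tested sets of values held a library far from the others of its group; chance alone marks about 1 in 20. Of these, 3 were the library labelled UC2288 Cre+ 3, with Cx3cr1 at 2047 CPM, Csf1r at 4179 CPM and Mrc1 at 319 CPM. In UC2288 Cre+, library 4 stood apart for Rpl37 at 1687 CPM. Among vehicle Cre+ libraries, library 2 was high for H2-K1 at 2442 CPM and for H2-D1 at 2031 CPM. Vehicle library 3 was low for Ccl12 at 740 CPM and high for E230029C05Rik at 754 CPM, and vehicle library 1 was low for Rapgef2 at 45.1 CPM.

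The UC2288 effect differed between Cre+ and Cre- past the interaction test for 16 named genes, given as the log2 fold change in Cre+ minus that in Cre-. Higher in Cre+ were Wdr89 at 4.98, Sftpa1 at 3.42, Gm10163 at 2.72, Tprgl at 2.36, Rpl9-ps6 at 1.85, Cst3 at 1.65 and Rpl37a at 1.27. Lower in Cre+ were Pim1 at -2.91, Rreb1 at -2.35, Ago3 at -2.28, Suz12 at -2.27, Herc1 at -2.09, Stab1 at -1.71, E230029C05Rik at -1.67, Dnmt3a at -1.64 and Tra2a at -1.08.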

How the results depend on the processing

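The 36 calls of 4953 genes for UC2288 over vehicle in Cre+ pups became 21 with DESeq2 size factors and 132 of 20544 with no filter. They became 56 of 10325 with at least 10 CPM in 4 libraries, 5 with limma-voom and 18 with its sample weights. DESeq2 called 120 of the 1687 genes to which it gave an adjusted p, and 29 of these were among the 36. The calls were 2 of 3979 when only the groups compared were fitted and 22 with a sex covariate. Alternatives chosen after seeing the data gave 15 under total counts, 1 without pseudogenes, 2 without pseudogenes and library 3, 3 without libraries 3 and 4, and 2 without libraries 2 and 4. Leaving out 1 library gave 1 to 266. The cause of these shifts was not tested.

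The 96 calls of the difference between Cre+ and Cre- became 179 with no filter, 364 with limma-voom sample weights, 33 with only the groups compared, 46 with a sex covariate, 8 without UC2288 Cre+ libraries 3 and 4 and 4 without 2 and 4, and 1 to 533 when 1 library was left out. The single Cre- call became 36 with no filter, 0 with limma-voom with and without sample weights, and 0 to 45 when 1 library was left out. Tamoxifen against oil gave 1157 to 1400 calls when 1 library was left out. Under total counts its split moved to 992 higher and 565 lower. With the replicate number as a block the counts were 47 for Cre+, 58 for the difference, 1 for Cre- and 1503 for tamoxifen. Same-numbered UC2288 and vehicle Cre+ libraries did not deviate together (correlations of -0.0773 to 0.0759). The other groups were not checked, so whether the numbers mark a shared origin is not settled.

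Cdkn1a stayed negative and not called in all 23 alternatives run, from -0.36 to -0.09, and from -0.36 to -0.11 when 1 library was left out. Log2 fold changes near 0 turned sign, none of them called. With limma-voom Bst2 was -0.008, Lgals3bp -0.061, H2-K1 -0.19 and H2-D1 -0.082, and with sample weights Cx3cr1 was -0.033, H2-K1 -0.021 and Mrc1 -0.032. With the replicate block Lgals3bp was -0.015 and H2-K1 -0.051. Under total counts Mdm2 was -0.009, Bst2 -0.015, Lgals3bp -0.06, H2-K1 -0.004 and H2-D1 -0.029. Without libraries 3 and 4 Cx3cr1 was -0.13, Cdk6 0.049 and Mrc1 -0.27. Without 2 and 4 Bst2 was -0.19, Lgals3bp -0.26, H2-K1 -0.33, H2-D1 -0.30 and B2m -0.069. Without pseudogenes and library 3 Cx3cr1 was -0.21 and Mrc1 -0.29. With 1 library left out the values ran from -0.22 to 0.22 for Cx3cr1, -0.051 to 0.24 for Mdm2, -0.066 to 0.26 for Bst2, -0.09 to 0.22 for Lgals3bp, -0.12 to 0.36 for H2-K1, -0.08 to 0.30 for H2-D1, -0.11 to 0.29 for Apoe and -0.29 to 0.43 for Mrc1.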
